A study of Homo sapiens with 9 samples.

Results

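The 10 genes described here regulate the hypoxia-inducible factors (HIF) or are induced by them, and they were taken by symbol from the 59452 rows of the gene table. Each symbol matched 1 row. The HIF alpha subunits are *HIF1A* and *EPAS1* (also called HIF2A), the prolyl hydroxylases are *EGLN1* and *EGLN3*, and the hypoxia-induced genes are *NDRG1*, *BNIP3*, *CA9*, *ADM*, *ANKRD37* and *DDIT4*. Their RNA was measured in MDA-MB-453 cells, a human breast cancer line, by RNA-seq of 9 libraries, 3 from each of 3 conditions. The cells were wild-type only in that the methods describe no shRNA or added gene for these libraries. Attached cells with vehicle grew on regular plates, and suspended cells with vehicle were kept from attaching by a poly-HEMA coating. In the third condition AT-0174, which blocks TDO2 and IDO1, the enzymes that start the breakdown of tryptophan to kynurenine, was given to suspended cells at 10 µmol/L. All 3 conditions shared DMEM with 10% fetal bovine serum and 48 hours of treatment, and the vehicle was DMSO. Attached cells with AT-0174 were not analysed here, so the inhibitor was compared with vehicle in suspension only, in 1 cell line.

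HIF alpha subunits pair with ARNT and bind DNA next to genes of glucose use, pH control, vessel growth and mitochondrial turnover. With oxygen present, prolyl hydroxylases of the EGLN family modify the alpha subunits, and the VHL ubiquitin ligase then sends them to the proteasome, so that HIF activity is set mainly at the protein level, which RNA-seq does not measure. *EGLN3* and the hypoxia-induced genes are transcribed more when HIF is stable, although *DDIT4*, *NDRG1* and *ADM* also respond to other stresses.

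The shortest element that HIF binds is ACGTG or GCGTG. The 250 bases before the RefSeq transcription start (GRCh38.p14) were searched for both on both strands in 9 of the 10 genes. *NDRG1* was not searched. Of the 9, 8 held at least 1 match in at least 1 entry. Of the 35116 promoters of the same length in the table, each entry counted singly, 43.2% did. *HIF1A* had another entry, which held 0 matches. Those of *BNIP3* (chr10:131981968-131982173, minus strand), *CA9* (chr9:35673678-35673927, plus strand), *ANKRD37* (chr4:185396591-185396810, plus strand) and *DDIT4* (chr10:72273674-72273918, plus strand) are shown because they hold the most matches or belong to the gene with the lowest level. Capitals mark ACGTG and GCGTG or, for matches on the opposite strand, CACGT and CACGC, and bases that overlap an annotated exon were left off.
BNIP3: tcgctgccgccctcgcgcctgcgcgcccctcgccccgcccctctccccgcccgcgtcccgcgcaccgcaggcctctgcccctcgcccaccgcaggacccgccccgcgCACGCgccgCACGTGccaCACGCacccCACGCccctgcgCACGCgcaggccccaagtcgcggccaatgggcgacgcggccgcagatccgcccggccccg
CA9: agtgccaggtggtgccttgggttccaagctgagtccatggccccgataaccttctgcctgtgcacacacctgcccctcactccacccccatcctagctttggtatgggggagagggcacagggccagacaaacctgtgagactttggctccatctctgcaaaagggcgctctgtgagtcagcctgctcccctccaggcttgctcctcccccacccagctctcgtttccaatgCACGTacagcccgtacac
ANKRD37: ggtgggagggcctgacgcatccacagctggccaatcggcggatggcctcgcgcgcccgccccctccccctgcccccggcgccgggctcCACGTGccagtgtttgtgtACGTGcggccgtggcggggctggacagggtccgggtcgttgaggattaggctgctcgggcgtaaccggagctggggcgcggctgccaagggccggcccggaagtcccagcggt
DDIT4: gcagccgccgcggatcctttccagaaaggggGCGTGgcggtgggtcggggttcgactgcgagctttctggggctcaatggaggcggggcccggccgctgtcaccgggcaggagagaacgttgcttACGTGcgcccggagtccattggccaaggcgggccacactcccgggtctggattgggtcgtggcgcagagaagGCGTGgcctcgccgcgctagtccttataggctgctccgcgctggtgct
*BNIP3* held 6 matches within the bases from −143 to −100, and 3.22% of all promoters held 4 or more. *ANKRD37* and *DDIT4* held 3 each, and 7.76% of all promoters held 3 or more. In *BNIP3* and *ANKRD37*, the palindrome CACGTG counts as 2 overlapping matches, 1 per strand. *CA9* held 1, on the opposite strand from −18 to −14, and 18.5% of promoters held an ACGTG. *HIF1A*, *EPAS1*, *EGLN1* and *ADM* held 1 match each and *EGLN3* none in this window. A match is a string of letters and was not tested as a bound site.

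The libraries held between 36649997 and 48019126 estimated counts, and 15528 genes passed the filter on low counts, the 10 genes among them. *CA9* passed only through its 3 highest libraries, all suspended. The labels do not say whether libraries came from separate cultures, whereas the methods describe each condition as run in biological triplicate, and p-values measure the spread between these libraries. The epithelial and luminal markers *EPCAM*, *KRT8*, *KRT18*, *KRT19* and *ERBB2* each had at least 11284 counts in every library. The labels call the line triple-negative, and *ESR1* had 0 to 4 and *PGR* 5 to 18 counts per library, whereas *ERBB2* had 37764 to 50812. Of 9 markers of other cell types, 7 had at most 13 counts in any library and *CD3E* had 0 in all. Their summed level was 133 to 151 CPM, counts scaled by library size, in attached, 114 to 115 in suspended vehicle and 110 to 116 in suspended AT-0174 libraries. *COL1A1* made up nearly all of it, since the other 8 summed to between 1.48 and 2.63 CPM. The log2 fold change of *COL1A1* in suspension with vehicle was −0.28 (adjusted p = 0.00182 in edgeR), and *KRT19* (0.15, adjusted p = 0.0187) rose there. The *KRT19* call was lost without attached replicate 3 or suspended vehicle replicate 2 (adjusted p up to 0.0778). *EPCAM*, *KRT8*, *KRT18* and *ERBB2* did not pass. The part of cells with these markers in the results was not tested. In bulk RNA, fewer cells that express a gene and less RNA per cell cannot be told apart.

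Levels were ordered per length, in TPM, the authors' length-corrected transcript abundance. The order of the 10 genes was the same in all 3 conditions: *EGLN3*, *DDIT4*, *EPAS1*, *BNIP3*, *HIF1A*, *EGLN1*, *NDRG1*, *ANKRD37*, *ADM* and *CA9*. In attached cells, the mean level was 306 ± 25.2 TPM (SD, n = 3) for *EGLN3* and 189 ± 11.4 for *DDIT4*, above 96.7% and 93.9% of the 12995 genes with at least 1 TPM. *EPAS1* stood at 79.8 ± 2.56, *BNIP3* at 50.9 ± 3.65, *HIF1A* at 44.6 ± 3.75 and *EGLN1* at 35.1 ± 1.72. The other members were far lower, with *NDRG1* at 2.51 ± 0.443, *ANKRD37* at 1.87 ± 0.249, *ADM* at 0.709 ± 0.122 and *CA9* at 0.0786 ± 0.0468 TPM. Neighbours in the order did not overlap between libraries, except *BNIP3* and *HIF1A* in attached cells. The level of *EPAS1* was 1.65 to 2.20 times that of *HIF1A* over the 9 libraries, and that of *EGLN3* was 7.88 to 12 times that of *EGLN1*.

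**Figure D1:**
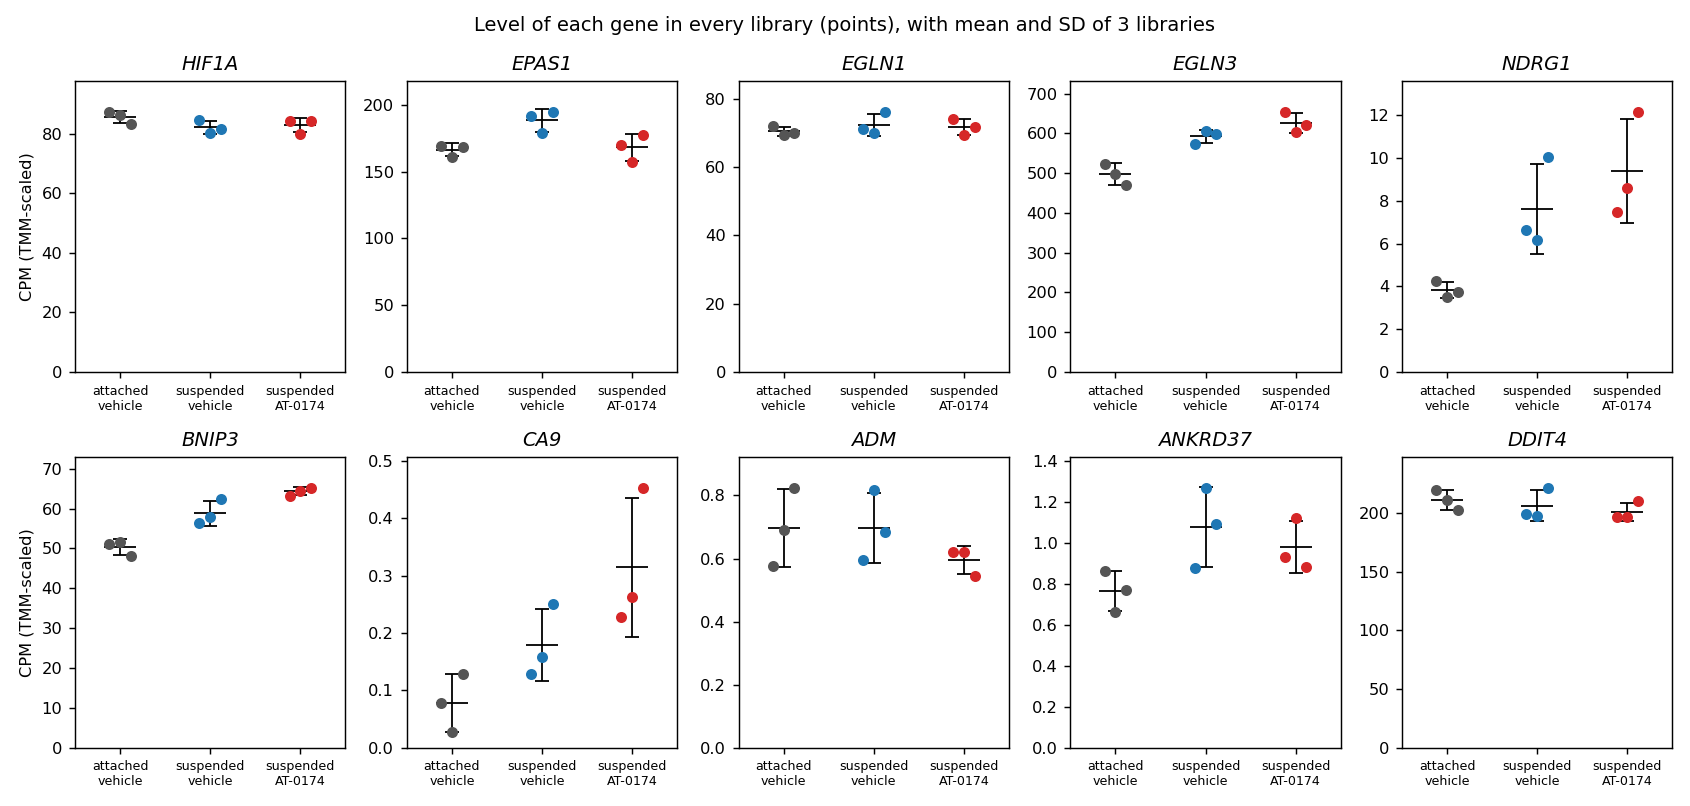
TMM-scaled CPM of the 10 genes on a linear axis from 0, with 1 point per library and the mean and SD (n = 3) as a line and bars. *EGLN3*, *NDRG1* and *BNIP3* are higher in every suspended library than in every attached one, *EPAS1* is highest with vehicle in suspension, and *CA9* and *ADM* stay under 1 CPM.

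The first comparison asked which of these genes differ between forced suspension and attached growth, both with vehicle. *NDRG1*, *EGLN3*, *BNIP3* and *EPAS1* rose in suspension, *NDRG1* by 1.99-fold and the others by 1.13- to 1.19-fold, and no member fell. The 4 called genes compare with 21.2% of all 15528 genes called at an adjusted p under 0.05, 10.4% higher and 10.8% lower. Library values did not overlap between conditions for 6 of the 10 members, *CA9* included, and for 38.1% of all genes. The members' median log2 fold change was 0.20, with 8 of 10 above 0, whereas the median of all genes was −0.00025. Both member values include *CA9*, which passed the filter on low counts only through suspended libraries, and *ADM* at 0.0044. All adjusted p-values are Benjamini–Hochberg values over all genes from edgeR's quasi-likelihood test, and values per library are CPM scaled by TMM, edgeR's correction for library composition.

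Among the HIF alpha subunits, *EPAS1* (chr2:46293667-46386697, plus strand), the subunit made by fewer cell types, had 169, 161 and 169 CPM in attached and 192, 179 and 194 CPM in suspended vehicle libraries. The lowest suspended library exceeded the highest attached one. The log2 fold change was 0.18 (SE 0.0466, adjusted p = 0.0170). The call was lost without attached replicate 2 (0.16, adjusted p = 0.0634), without suspended vehicle replicate 3 (0.16, adjusted p = 0.0630) and with counts rebuilt from TPM (0.13, adjusted p = 0.358). *HIF1A* (chr14:61695513-61748259, plus strand), the broadly expressed subunit, had 87.3, 86.4 and 83.2 CPM in attached and 84.7, 80.2 and 81.7 CPM in suspended vehicle libraries. The conditions overlapped, and the log2 fold change of −0.06 (95% interval −0.14 to 0.02, adjusted p = 0.282) did not pass.

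Of the oxygen sensors, *EGLN3* (chr14:33924227-34462774, minus strand) encodes PHD3, a hydroxylase that HIF itself induces. It had 524, 497 and 469 CPM in attached and 573, 605 and 598 CPM in suspended vehicle libraries, with no overlap. The log2 fold change was 0.25 (SE 0.0432, adjusted p = 0.00209), and the gene was called in all 17 alternatives, at 0.21 to 0.29. *EGLN1* (chr1:231363751-231422287, minus strand) encodes PHD2, the main hydroxylase of HIF1A in normal oxygen. It had 71.8, 69.3 and 70.0 CPM in attached and 71.0, 70.0 and 76.0 CPM in suspended vehicle libraries. The values overlapped, with a log2 fold change of 0.04 (95% interval −0.05 to 0.13, adjusted p = 0.536).

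Of the induced genes, *NDRG1*, on the minus strand of chromosome 8, encodes a stress-responsive protein linked to differentiation and lipid metabolism. It had 4.26, 3.49 and 3.76 CPM in attached and 6.64, 6.19 and 10.0 CPM in suspended vehicle libraries. Suspended vehicle replicate 3 was the highest of these 6, and the lowest suspended library was still above the highest attached one. The log2 fold change was 0.99 (SE 0.209, adjusted p = 0.00631), and the gene was called in all 17 alternatives, at 0.74 without suspended vehicle replicate 3 and up to 1.13. *BNIP3* (chr10:131967684-131981967, minus strand), a mitochondrial outer membrane protein that promotes mitophagy, had 51.2, 51.7 and 48.1 CPM in attached and 56.3, 57.8 and 62.3 CPM in suspended vehicle libraries. These did not overlap. Its log2 fold change was 0.23 (SE 0.0453, adjusted p = 0.00501), called in all 17 alternatives at 0.18 to 0.26.

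The other 4 induced genes did not pass. *CA9* (chr9:35673928-35681159, plus strand), the cell-surface carbonic anhydrase IX that exports acid equivalents, had 3, 1 and 5 estimated counts in attached and 5, 7 and 11 in suspended vehicle libraries. After scaling, the highest attached and the lowest suspended library lay at 0.129 CPM each, at 5 counts. Pooled over libraries, 23 against 9 counts gave a ratio of 2.28 (95% exact interval 1.02 to 5.61, counting error only), and the fitted log2 fold change was 1.16 (SE 0.590, adjusted p = 0.187). *ANKRD37* (chr4:185396021-185400628, plus strand), an ankyrin-repeat protein, had 33, 24 and 30 counts in attached and 34, 56 and 48 in suspended vehicle libraries. On the CPM scale the conditions did not overlap, by 0.863 against 0.879 at the nearest libraries, and the log2 fold change was 0.50 (95% interval −0.0041 to 1.00, adjusted p = 0.150). *ADM* (chr11:10305073-10307397, plus strand), the vasodilator peptide adrenomedullin, had 22 to 32 counts in attached and 23 to 36 in suspended vehicle libraries, and its log2 fold change of 0.0044 had an interval of −0.54 to 0.55. *DDIT4* (chr10:72273919-72276036, plus strand), which encodes the mTORC1 inhibitor REDD1, had 220, 211 and 203 CPM in attached and 200, 198 and 222 CPM in suspended vehicle libraries. Its levels overlapped, at a log2 fold change of −0.04 (95% interval −0.14 to 0.07, adjusted p = 0.648).

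**Figure D2:**
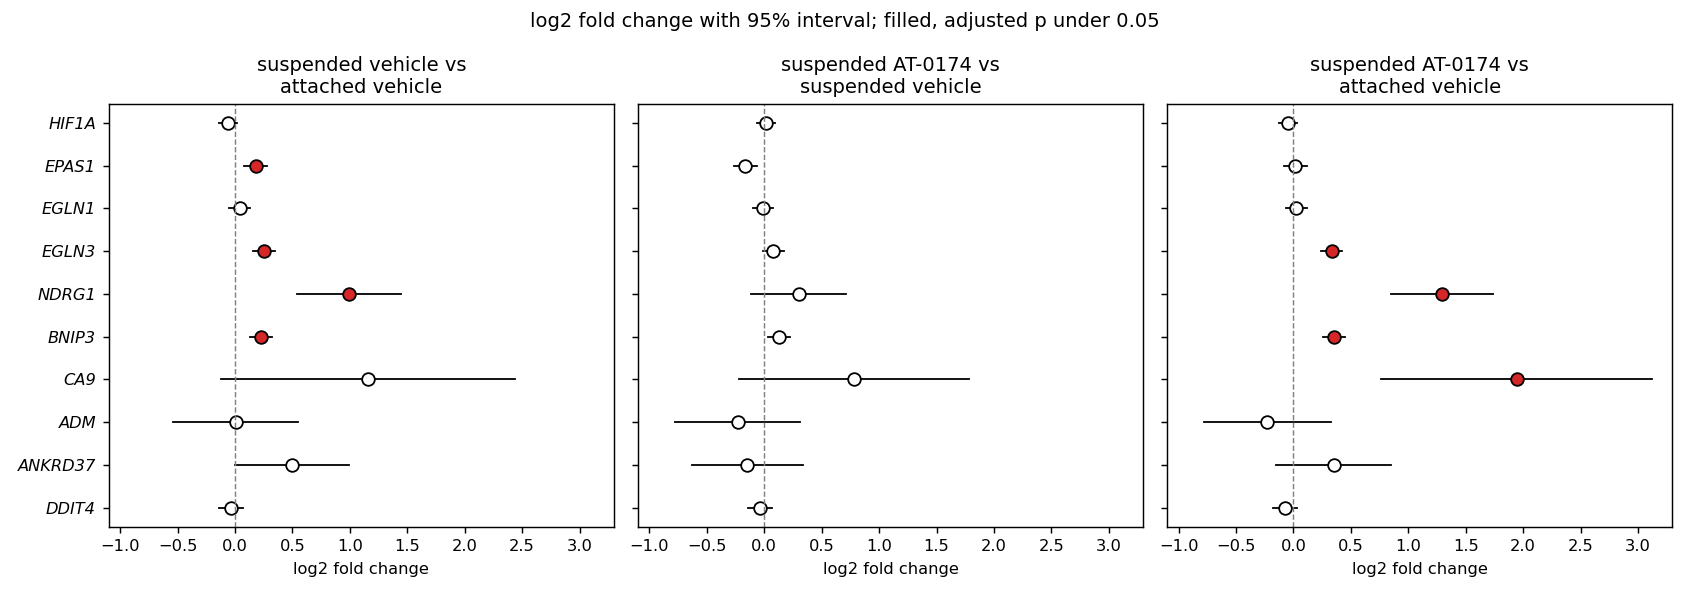
Log2 fold change of each gene (points) with its 95% interval (lines) in the 3 comparisons, where filled points passed an adjusted p of 0.05 in edgeR's quasi-likelihood test. *EGLN3*, *NDRG1* and *BNIP3* are filled in both comparisons with attached cells, no gene is filled between AT-0174 and vehicle in suspension, and the interval of *CA9* is the widest.

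The second comparison asked what AT-0174 changed in suspended cells. None of the 10 genes passed the adjusted threshold in edgeR, where 0.779% of all genes did (0.522% higher, 0.258% lower), and 2 (*EPAS1* and *BNIP3*) had an unadjusted p under 0.05. DESeq2 called 1 of them, *EPAS1*, and limma-voom called 0. The members' median log2 fold change was −0.00070, beside 0.0013 for all genes. Library values did not overlap for 2 of the 10 members and for 15.4% of all genes.

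*EPAS1* had 170, 157 and 178 CPM with AT-0174, each below the 192, 179 and 194 CPM with vehicle. The nearest libraries were 178 and 179 CPM. The log2 fold change was −0.16 (95% interval −0.26 to −0.06, adjusted p = 0.185 in edgeR), and over the alternatives the adjusted p ranged from 0.00496 to 0.939. It passed with DESeq2 (−0.17, adjusted p = 0.0323), with no filter on low counts (−0.16, adjusted p = 0.00496) and with the replicate number as a block (−0.16, adjusted p = 0.0372). *BNIP3* had 63.3, 64.5 and 65.2 CPM with AT-0174, each above the 56.3, 57.8 and 62.3 CPM with vehicle, and its log2 fold change was 0.13 (95% interval 0.03 to 0.23, adjusted p = 0.335), with adjusted p-values of 0.147 to 0.677 over the alternatives.

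The remaining members overlapped between AT-0174 and vehicle. *EGLN3* had 653, 603 and 621 CPM with AT-0174, at a log2 fold change of 0.08 (95% interval −0.01 to 0.17). *NDRG1* had 7.47, 8.62 and 12.1 CPM, at 0.30 (−0.11 to 0.72), and *CA9* had 11, 11 and 20 counts, at 0.79 (−0.22 to 1.79). In each suspended condition the library with the highest *NDRG1* level also had the highest *CA9* level, replicate 3 in both. In attached cells they differed, with *NDRG1* highest in replicate 1 and *CA9* in replicate 3. With 1 to 20 *CA9* counts per library, no link between the 2 genes was tested. *ANKRD37* had a log2 fold change of −0.15 (−0.63 to 0.34) and *ADM* of −0.23 (−0.78 to 0.31), with intervals wide enough that changes of this size were not detectable at 22 to 56 counts per library. *HIF1A*, *EGLN1* and *DDIT4* had log2 fold changes of 0.01, −0.01 and −0.04, and their intervals lay between −0.14 and 0.09.

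Suspended cells with AT-0174 differed from attached cells with vehicle in both culture and inhibitor, and this comparison shares its libraries with the other 2. *NDRG1*, *BNIP3* and *EGLN3* were higher, 3 of the 9 members other than *CA9*, beside 24% of all genes called, 12.2% higher and 11.8% lower. *CA9* was called too, but it had passed the filter on low counts only through suspended libraries and is described apart. Values did not overlap for 5 of the 10 members, *CA9* included, and for 39.5% of all genes. *NDRG1* was 2.45-fold higher (log2 fold change 1.29, SE 0.206, adjusted p = 0.00104 in edgeR), *BNIP3* 1.28-fold (0.35, SE 0.0450, adjusted p = 0.000248) and *EGLN3* 1.26-fold (0.33, SE 0.0432, adjusted p = 0.000292), and all 3 were called in all 17 alternatives. For *EPAS1* the log2 fold change was 0.02 (95% interval −0.09 to 0.12, adjusted p = 0.843).

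The *CA9* call in that comparison rested on 42 counts over 3 suspended AT-0174 libraries and 9 over 3 attached ones, a ratio of 3.94 (95% exact interval 1.89 to 9.19, counting error only). The fitted log2 fold change was 1.95 (SE 0.543, adjusted p = 0.0212 in edgeR). The call was lost without attached replicate 1 (1.94, adjusted p = 0.0617), without attached replicate 2 (1.57, adjusted p = 0.0756) and without suspended AT-0174 replicate 3 (1.59, adjusted p = 0.0868). DESeq2 gave it no adjusted p, and it was not tested with a minimum of 10 counts in every library or with only the 6 libraries of the comparison.

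Most of the annotated RNA of the abundant members came from a few transcripts, given here as shares of the gene's TPM in each library, with no test. The 1062-base *BNIP3* transcript ENST00000633835 held 71.9% to 76.8% of *BNIP3* in every library, against 18.8% to 23.1% for the 2861-base canonical form. *EGLN3* was 77.2% to 81.1% its canonical transcript. The shares of both genes overlapped between all 3 conditions. For *HIF1A*, the canonical transcript held 44.3% to 51.9%, and a 739-base transcript with no defined coding sequence (ENST00000555014) 22.7% to 37.9%. *EPAS1* was 49.1% to 60.9% canonical, with 21.5% to 30.2% in a 452-base transcript with no defined coding sequence and 10.9% to 20.2% in a 559-base retained-intron form. The short forms of both subunits are too short to hold the full coding sequence.

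*DDIT4* was 65.0% to 70.8% canonical in attached libraries, 54.6% to 63.6% in suspended vehicle libraries and 55.4% to 67.6% in suspended AT-0174 libraries. Attached and suspended vehicle libraries did not overlap in this share, by 65.0% against 63.6% at the nearest libraries. The TPM of this transcript did overlap between them, at 116 to 141 and 108 to 127. The form annotated for nonsense-mediated decay, at 15.0% to 29.8%, overlapped in its share between all conditions. *EGLN1* was 47.6% to 66.4% canonical, and its 1090-base coding transcript ENST00000658954 held 32.6% to 37.4% in attached and 28.9% to 32% in suspended vehicle libraries. The 649-base *ANKRD37* transcript without a coding sequence (ENST00000507479) held 17.8%, 38.6% and 50.7% in attached libraries, 7.5%, 8.4% and 9.1% in suspended vehicle libraries and 6.8%, 25.6% and 10.5% in suspended AT-0174 libraries. The attached libraries were above all suspended vehicle ones, although the whole gene had only 24 to 56 counts, too few to resolve its transcripts. How often such shares fail to overlap over all transcripts was not computed. *NDRG1* has 61 transcripts in the table, and its canonical share swung from 44.6% to 96.3% between libraries, so its transcripts were not resolved at this depth.

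**Figure D3:**
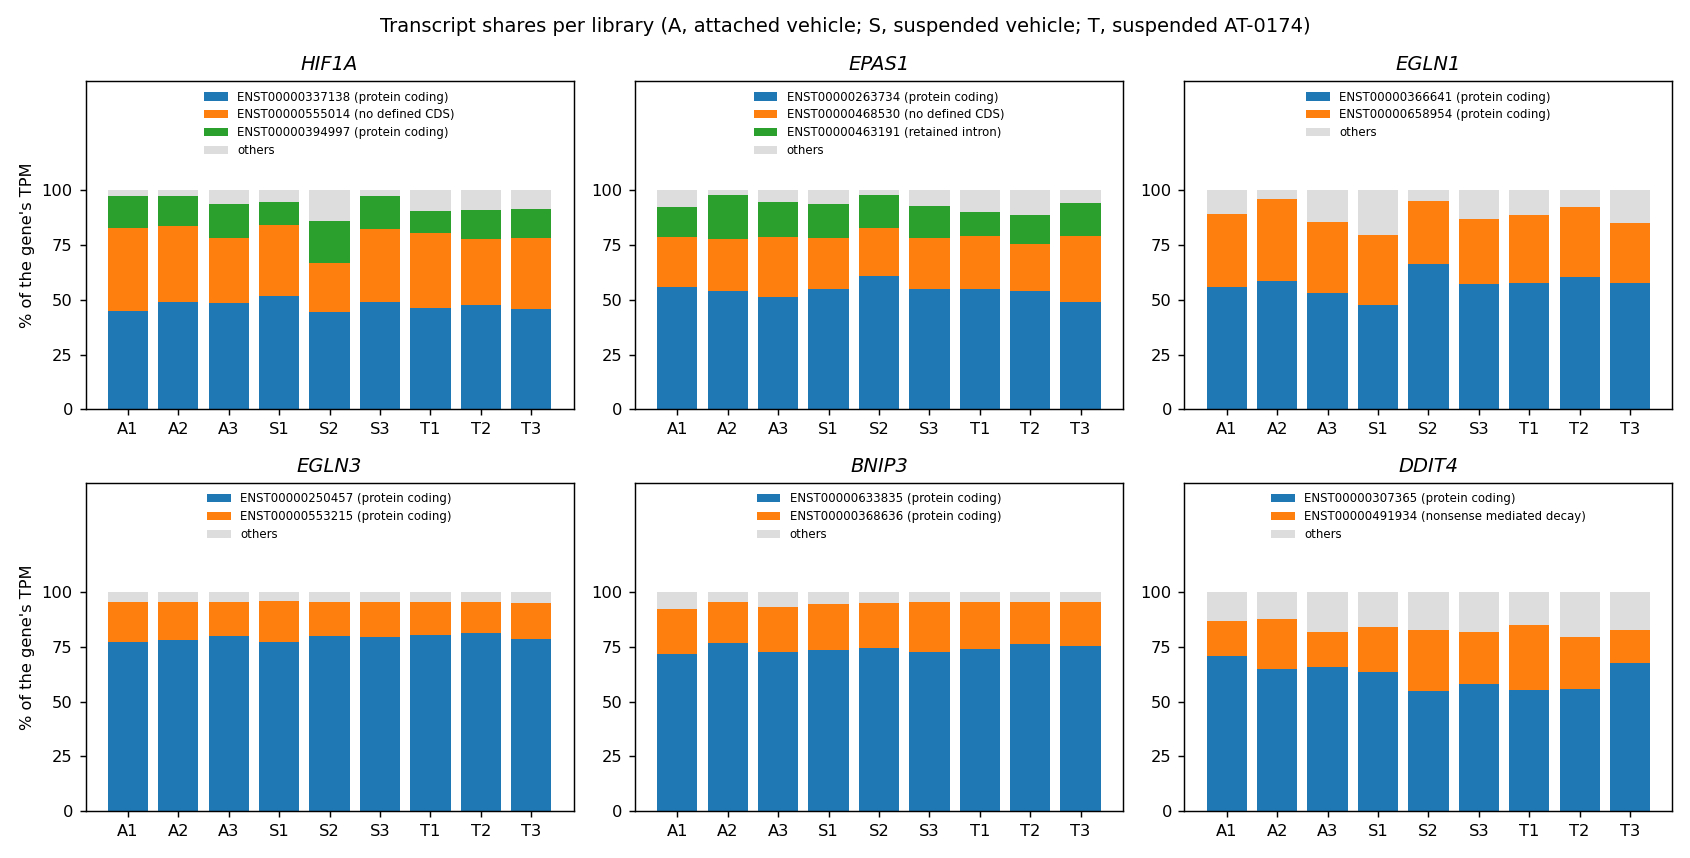
Share of each gene's TPM (vertical axis, percent) held by its main transcripts in the 9 libraries, stacked to 100, with colours for transcripts and gray for all others. In *BNIP3* and *EGLN3* 1 transcript holds over 70% in every library, whereas *HIF1A*, *EPAS1*, *EGLN1* and *DDIT4* are divided between forms, and the canonical *DDIT4* share is lower in the suspended vehicle than in the attached libraries.

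The partners and regulators of HIF were read from a list of 17 genes, of which 15 were tested. In suspension with vehicle, 4 rose and none fell, 26.7% of those tested beside 21.2% of all genes, with a median log2 fold change of 0.02. They were *ELOC* (0.19, adjusted p = 0.00576), *RBX1* (0.18, adjusted p = 0.00701) and *CUL2* (0.16, adjusted p = 0.0119), which encode parts of the VHL ubiquitin ligase, and *RACK1* (0.16, adjusted p = 0.00961), which encodes a scaffold protein. *ELOB*, another part of the ligase, did not pass (0.13, adjusted p = 0.0920). *VHL* had a log2 fold change of −0.00051, *EGLN2*, the third hydroxylase, 0.02, *HIF1AN*, the asparaginyl hydroxylase, −0.04, and *ARNT*, the shared partner, −0.12 (adjusted p = 0.118). None of the 15 passed between AT-0174 and vehicle in edgeR, and 0 had an unadjusted p under 0.05, with 0 called by DESeq2 or limma-voom. Against attached cells, suspended AT-0174 cells had 5 higher and 1 lower, 40% of those tested beside 24% of all genes. The lower gene was the coactivator *CREBBP* (−0.17, adjusted p = 0.0462 in edgeR). It lost its call without attached replicate 3, suspended vehicle replicate 2, or suspended AT-0174 replicate 2 or 3. The call was also lost with counts rebuilt from TPM (adjusted p up to 0.195 over the alternatives). *HIF3A*, the third alpha subunit, had 0 or 1 count and *ARNT2* 2 to 9.

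Hypoxia-induced genes outside glycolysis moved in both directions. Of 35 tested from a list of 40, 8 rose and 3 fell in suspension with vehicle, 31.4% beside 21.2% of all genes, with a median of 0.08. The transcription factor *BHLHE40* (0.32, adjusted p = 6.46e-05), the transferrin receptor *TFRC* (0.17, adjusted p = 0.00286), the mitochondrial kinase *AK4* (0.22, adjusted p = 0.00503) and the collagen prolyl hydroxylase *P4HA2* (0.21, adjusted p = 0.00648) rose. The related factor *BHLHE41* (−0.62, adjusted p = 0.0102), the ephrin *EFNA1* (−0.17, adjusted p = 0.0152) and *WSB1* (−0.29, adjusted p = 0.0351) fell. With counts rebuilt from TPM, the value of *BHLHE41* was −1.89, and *P4HA2* lost its call (adjusted p = 0.335 in edgeR), as did *EFNA1* and *WSB1*. *BHLHE40*, *TFRC*, *AK4* and *BHLHE41* were called in all 17 alternatives. The count of called genes was 7 without attached replicate 2 and 6 from TPM. *EFNA1* lost its call without attached replicate 2 or suspended vehicle replicate 1 (adjusted p up to 0.0914), and *WSB1* without attached replicate 1 or 3 or suspended vehicle replicate 1 or 2 (adjusted p up to 0.754 over the alternatives). *EPO*, the kidney hormone through which HIF was found, had 0 counts in every library, which allows up to 0.0819 CPM in the shallowest library, for counting error only.

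With AT-0174 in suspension, none of the 35 passed in edgeR, 6 had an unadjusted p under 0.05, DESeq2 called 2 and limma-voom 0. Compared with attached cells, suspended AT-0174 cells had 10 of the 35 higher and 3 lower, 37.1% beside 24% of all genes. The 4 higher genes with the smallest p were *BHLHE40* (0.36), *TFRC* (0.26), the carbonic anhydrase *CA12* (0.26) and *IGFBP3* (0.68), with adjusted p-values up to 0.000518. The 3 lower genes were *BHLHE41* (−0.56, adjusted p = 0.0138), *FUT11* (−0.20, adjusted p = 0.0225) and *EFNA1* (−0.14, adjusted p = 0.0263). Each of these 3 lost its call without attached replicate 1 or suspended AT-0174 replicate 1, with adjusted p-values up to 0.0952 over the alternatives. *FUT11* also lost it without attached replicate 3 or suspended AT-0174 replicate 3, and *EFNA1* without attached replicate 2 or suspended AT-0174 replicate 2 or 3. Both *FUT11* and *EFNA1* lost it with counts rebuilt from TPM, and *EFNA1* with no filter on low counts.

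Of 24 genes of glycolysis and glucose uptake tested from a list of 25, 9 rose and 1 fell in suspension with vehicle, 41.7% beside 21.2%, with a median of 0.08. The glucose transporter *SLC2A1* (0.37), the hexokinase *HK2* (0.28), the pyruvate dehydrogenase kinase *PDK3* (0.38) and the mutase *PGAM1* (0.19) rose, with adjusted p-values up to 0.00341, and each was called in all 17 alternatives. The enolase *ENO2* fell (−0.18, adjusted p = 0.0169), a call lost without attached replicate 3 or suspended vehicle replicate 1 or 2 (adjusted p up to 0.0727). None passed with AT-0174 in edgeR, 4 had an unadjusted p under 0.05, DESeq2 called 1 and limma-voom 0. Against attached cells, 10 were higher and 1 lower in suspended AT-0174 cells, 45.8% beside 24% of all genes. *SLC2A1* (0.43), *HK2* (0.35), *GPI* (0.27) and *ALDOA* (0.29) were the 4 higher genes with the smallest p, and *ENO2* was lower (−0.17, adjusted p = 0.0189), which did not hold without attached replicate 3 or suspended AT-0174 replicate 1 or 3 (adjusted p up to 0.0894).

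**Figure D4:**
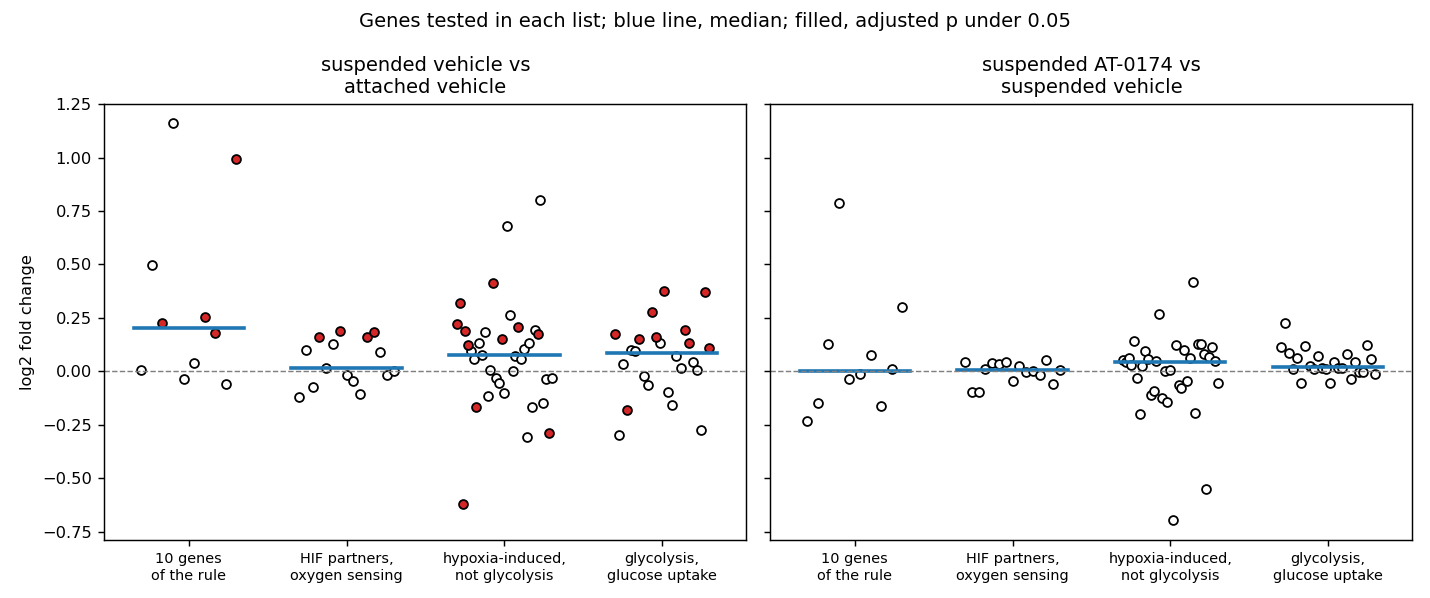
Log2 fold change (vertical axis) of every tested gene of the 4 groups, with suspension on the left and AT-0174 on the right, filled where the adjusted p was under 0.05 and with a line at each group's median. Filled points lie on both sides of 0 for hypoxia-induced genes, mostly above it for glycolysis, and are absent from the AT-0174 panel.

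Of 9 paralogs and receptors of the members, 3 were tested. *NDRG2*, *NDRG3* and *ADM2* did not pass in suspension with vehicle or with AT-0174 in edgeR. At an unadjusted p under 0.05, 0 did so in the former comparison and 1 in the latter, and neither DESeq2 nor limma-voom called any. The log2 fold changes of *NDRG2* and *NDRG3* in suspension were −0.06 and −0.03, beside 0.99 for *NDRG1*. *NDRG3* was the most abundant of the family, at 23.9 TPM in attached cells beside 2.67 for *NDRG2* and 2.51 for *NDRG1*. *ADM2* was higher in suspended AT-0174 than in attached cells (0.15, adjusted p = 0.0307 in edgeR). The call was lost without attached replicate 1 or 3 or suspended AT-0174 replicate 1 or 3. It was also lost by DESeq2 and with counts rebuilt from TPM (adjusted p up to 0.112 over the alternatives). The adrenomedullin receptor *CALCRL* and its partners *RAMP1*, *RAMP2* and *RAMP3* had at most 2 counts in any library, *NDRG4* at most 4 and *DDIT4L* at most 1.

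For each member called in any comparison, the 3 genes with the most similar profile were sought by the root mean square difference in log2 CPM over the 9 libraries, each profile centred on its mean. *EPAS1* was followed by *HERC3* (0.0213), *KDM4B* (0.0314) and *SHROOM2* (0.0417), beside 0.0987 for its own deviation from its mean. *KDM4B*, a histone demethylase of the hypoxia-induced list, had log2 fold changes of 0.15 in suspension and −0.14 with AT-0174. The adjusted p-values in edgeR were 0.0146 and 0.146, so the latter did not pass. Values like those of *EPAS1* follow from picking genes by likeness to its profile. The nearest to *EGLN3* were *RABL3*, *SINHCAF* and *GNG5* (0.0321 to 0.0357, own deviation 0.151), and to *BNIP3* they were *TMEM54*, *GLCE* and the glycolytic *ALDOA* (0.0349 to 0.0373, own deviation 0.154). *NDRG1* was followed by *KYAT1*, *S100P* and ENSG00000267740 less closely (0.196 to 0.258, own deviation 0.593), and *CA9* by *NDRG1* (0.319, own deviation 0.755), then by *RPS2P4* and ENSG00000267740. *CA9* had 1 to 20 counts per library and passed the filter on low counts only through suspended libraries. The filter thus favoured a profile higher in suspension, so the neighbours of *CA9* are no sign of a link. All neighbours named are descriptions over 9 libraries that share their conditions.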

How the data were processed

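The authors sequenced RNA of MDA-MB-453 cells and, per the labels' processing notes and the paper's methods, trimmed reads with Trim Galore 0.6.7 and cutadapt 3.4, aligned them with STAR 2.7.9a to GRCh38 and quantified them with Salmon 1.10.1. The gene table deposited by the authors holds estimated counts summed by symbol, with no normalization, and the deposited transcript files hold TPM. Counts of overlapping or antisense genes depend on strand settings not given in the sources used here. The labels name a SMARTER library kit and the methods another mRNA kit.

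Estimated counts were rounded, filtered with filterByExpr and scaled by TMM in edgeR 4.0.16 (R 4.3.3). All 9 libraries entered 1 quasi-likelihood fit with condition as the only term, in place of the limma test of the study, which was run as an alternative (limma-voom, limma 3.58.1). Called genes had an adjusted p (Benjamini–Hochberg over 15528 genes) under 0.05. CPM use TMM-scaled totals, and TPM of genes are sums of transcript TPM. No 2 libraries of the same condition agreed within sampling noise. Positions are from GENCODE release 44 and promoters from RefSeq, both on GRCh38.

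Named are all 10 members, up to 4 higher and 4 lower genes of each list with the smallest p, the paralogs and receptors, and the 3 nearest profiles of each called member. Other list genes (*VHL*, *ELOB*, *EGLN2*, *HIF1AN*, *ARNT*, *ARNT2*, *HIF3A*, *EPO*) were named after their values were seen. One epithelial marker is not reported here. The members, lists and tests were chosen with earlier results of these data known. Alternatives were DESeq2 1.42.0, its size factors within edgeR, limma-voom, a filter of none or of 10 counts in all libraries, a fit of the compared 6 libraries alone, counts rebuilt from TPM, a block by replicate number, and omission of each library in turn. A count of 0 allows up to 3 counts, and intervals on counts cover counting error only.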

Additional observations from a re-analysis of the deposited data

How the results depend on the processing

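The 4 called members in suspension with vehicle were 3 or 4 under all alternatives, as were the 4 of the comparison of suspended AT-0174 with attached cells, *CA9* among them. Between AT-0174 and vehicle in suspension, the count of called members moved from 0 to 1 with DESeq2, with no filter on low counts and with the replicate block. Of all genes, counts rebuilt from TPM called 1714 in suspension (main 3297), 35 with AT-0174 (main 121) and 2056 in suspended AT-0174 against attached cells (main 3724), and for AT-0174 DESeq2 called 239 and no filter 499. Leaving out 1 library gave 1935 to 3260, 63 to 128 and 2239 to 3680 genes in these comparisons. Directions reversed only for members near 0 that were not called. For *ADM* in suspension the log2 fold change was −0.0030 with only 6 libraries, −0.033 from TPM and −0.12 to 0.14 with 1 library left out. With AT-0174, leaving out 1 library gave −0.0092 to 0.037 for *HIF1A*, −0.042 to 0.020 for *EGLN1* and −0.074 to 0.014 for *DDIT4*. Against attached cells, it gave −0.027 to 0.063 for *EPAS1* in suspended AT-0174 cells, and *HIF1A* reached 0.046 from TPM. The cause of these shifts was not tested. At 1 to 56 counts per library, *CA9*, *ADM* and *ANKRD37* had wide intervals, so small changes in them were not detectable.

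With the replicate number as a block, 3250, 146 and 3677 genes and 4, 1 and 4 members were called in the 3 comparisons. No shared effect of the replicate number was seen. Deviations from the condition means of same-numbered libraries correlated at −0.0652 to 0.0526 across genes. In 6 of 18 cases a library correlated best with its own number in another condition. These values cannot show whether the cultures were set up in pairs. Under the block *EPAS1* passed with AT-0174 (log2 fold change −0.16, adjusted p = 0.0372), and the calls of the other members were as in the fit without it.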
